A study of Mus musculus with 18 samples.

Results

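Toll-like receptors were followed in mouse bone marrow–derived dendritic cells (DCs) that had been placed in collagen gels or kept without collagen. The set holds 10 genes (Tlr1 to Tlr9 and Tlr13) of the 29875 genes listed in the count table, chosen by name as the rows of this receptor family, and all 10 passed the filter on low counts that left 13844 genes for testing. Per the study's methods, the DCs came from bone marrow of wild-type C57Bl6/J mice, males 8 to 12 weeks old. They were grown with granulocyte-macrophage colony-stimulating factor (GM-CSF) supernatant, and had all received lipopolysaccharide (LPS) at 200 ng/ml on day 8, for 24 hours before loading. They were then placed in migration chambers in collagen under a CCL19 gradient, or in the same chambers in suspension, and RNA was taken 5 hours after the gradient was set up. Each of the 4 densities (1.7 and 4.4 mg/ml at the ends, with 2.6 and 3.5 between them) and the 2 suspension groups, titled with and without CCL19, has 3 libraries. For suspension, a title and its library name contradict each other on CCL19. These groups are called here as their titles say, and effects of CCL19 are given no direction. Because every group had been exposed to LPS, the data hold no unstimulated level of any receptor.

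Toll-like receptors are transmembrane proteins that bind conserved molecules of microbes and pass the signal through their cytoplasmic TIR domain to adaptor proteins. Tlr1, Tlr2, Tlr4, Tlr5, and Tlr6 sit mainly at the cell surface and recognize lipopeptides, LPS, or flagellin, whereas Tlr3, Tlr7, Tlr8, Tlr9, and Tlr13 reside in endosomes and recognize nucleic acids. In DCs, signaling through these receptors starts maturation, which brings antigen presentation, cytokine release, and CCR7-dependent migration toward CCL19.

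The libraries held 13062944 to 28059839 counts and no 2 of them were identical. Per the library names, each replicate number stands for a date and a lane, and thus for a batch with 1 library of each group. The libraries of replicate 3 held 0 counts of Xist, an RNA made from the inactive X chromosome of females, while those of replicates 1 and 2 held at least 29.3 CPM, which goes against the stated sex of the mice. Levels are CPM, counts scaled to a common total, over library sizes scaled by edgeR's TMM method, and 3 counts correspond to 0.0941 to 0.256 CPM, a floor that covers counting error only. Markers of DCs were high throughout, with the summed CPM of 9 markers between 15571 and 48209 in suspension and between 22424 and 52435 in collagen. In these bulk libraries fewer cells of a type and less RNA per cell cannot be told apart.

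Set against the 6 suspension libraries, the 12 collagen libraries had higher Tlr1, Tlr2, and Tlr7 and lower Tlr5 and Tlr9. These 5 of 10 receptors passed the quasi-likelihood test of edgeR, adjusted over all genes by Benjamini-Hochberg, at a false discovery rate (FDR) of 0.1, 3 of them higher and 2 lower. Tlr5 is in this count, in those for the densities, and in that for any difference among the groups. It passed the filter on low counts through its suspension libraries alone and so had to differ. Of all genes tested, 20.2% were called in this comparison, 7.78% higher and 12.4% lower. The median log2 difference was 0.10 over the 10 receptors and 0.0027 over all genes tested. With the replicate as a block, Tlr4 joined the receptors that were higher and Tlr13 those that were lower, which made 7 of 10, while 34.8% of all genes were called (15.6% higher and 19.3% lower).

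**Figure D1:**
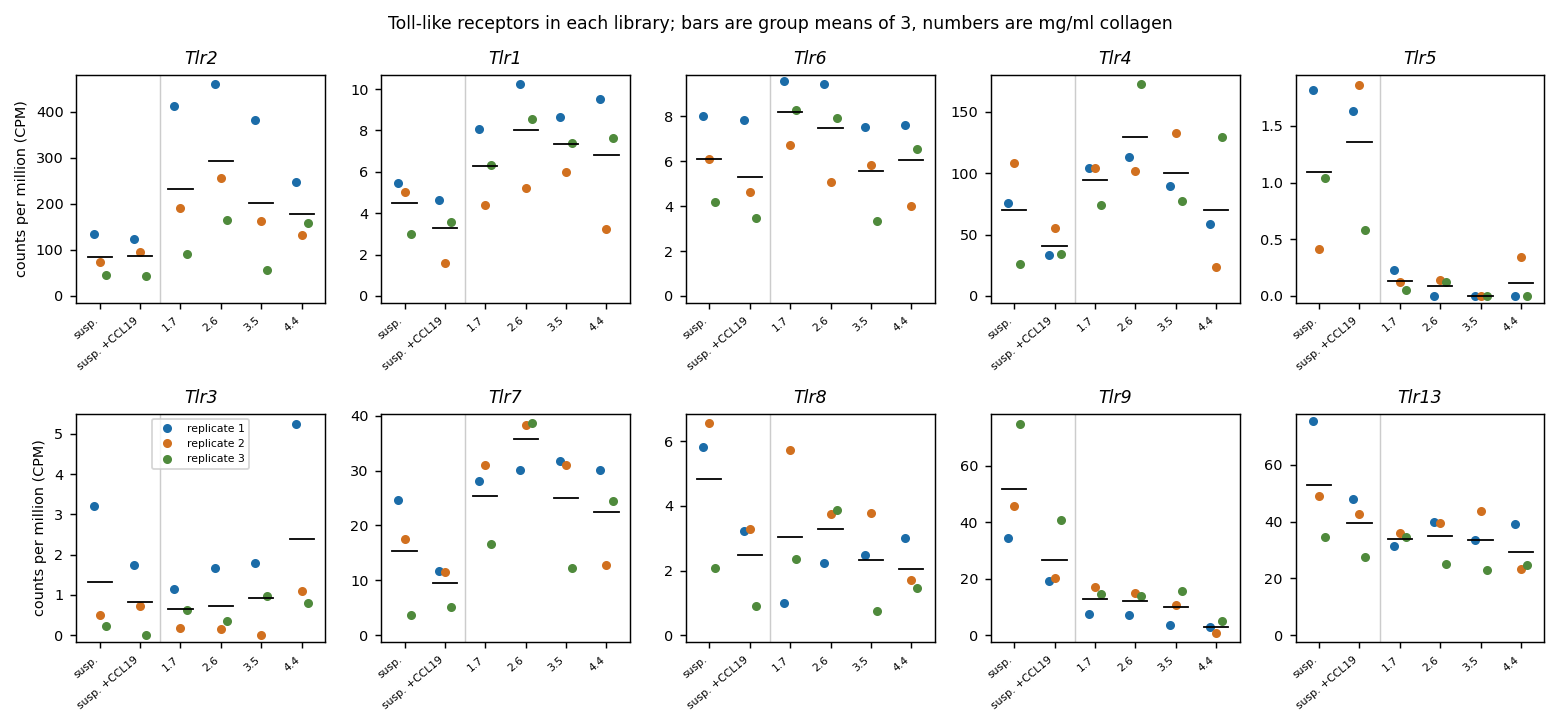
CPM of the 10 receptors in each of 18 libraries, with the 2 suspension groups left of the grey line, the 4 collagen densities (mg/ml) right of it, replicates in colors, and horizontal bars at the group means of 3 libraries. For Tlr5 and Tlr9 all 12 collagen libraries lie below all 6 suspension libraries (1.52% of all genes tested), whereas for Tlr3, Tlr6, and Tlr8 the groups lie across each other.

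Among the surface receptors, Tlr2 (chromosome 3, 83836272 to 83841767, minus strand, GRCm38), which pairs with Tlr1 or Tlr6 to bind bacterial lipopeptides, rose in collagen. In suspension, its level was 42.8 CPM in the lowest, 84.5 in the median, and 135 in the highest of 6 libraries. In replicates 1, 2, and 3 it was 412, 192, and 91.7 CPM at 1.7 mg/ml of collagen, 460, 256, and 165 at 2.6, 383, 164, and 57.0 at 3.5, and 248, 131, and 158 at 4.4. The replicate 1 library was the highest in each of the 6 groups, and the groups overlapped when pooled, with 9 of 12 collagen libraries above all suspension libraries. Within replicates they did not, since 12 of 12 collagen libraries lay above both suspension libraries of their own replicate. The share of all genes with this arrangement was not counted. With the replicate block, 15.6% of all genes were called higher. The log2 difference was 1.37 with a standard error of 0.42 (2.58-fold, adjusted p = 0.0415 in edgeR). Without replicate 2 the adjusted p was 0.27.

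Tlr1 (chromosome 5, 64924679 to 64933563, minus strand), the partner of Tlr2 for triacylated lipopeptides, also rose. Its level in suspension was 1.57 CPM in the lowest, 4.11 in the median, and 5.45 in the highest library. In replicates 1, 2, and 3 it was 8.09, 4.40, and 6.31 CPM at 1.7 mg/ml of collagen, 10.3, 5.21, and 8.56 at 2.6, 8.64, 5.97, and 7.37 at 3.5, and 9.52, 3.24, and 7.64 at 4.4. Of the 12 collagen libraries, 9 exceeded every suspension library and none fell below all of them. The log2 difference was 0.88 with a standard error of 0.29 (1.84-fold, adjusted p = 0.0572 in edgeR), and the call was lost when replicate 1, 2, or 3 was left out, with adjusted p = 0.14, 0.12, and 0.30.

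Tlr6 (chromosome 5, 64952031 to 64960097, minus strand), the partner of Tlr2 for diacylated lipopeptides, was not called. It ranged from 3.49 to 8.04 CPM in suspension (median 5.38) and from 3.35 to 9.55 CPM in collagen (median 7.13), with a log2 difference of 0.24 and a standard error of 0.26 (adjusted p = 0.59 in edgeR). The groups overlapped over nearly their whole range. Tlr1 and Tlr6 are neighbors on chromosome 5 and share part of their coding sequence, which matters because the libraries were read as single reads of 50 bases. Of the 50-base windows of Tlr1 transcripts in GENCODE, 13.6% occur in Tlr6, and 12.3% of the windows of Tlr6 occur in Tlr1. The longest identical stretch has 229 coding bases (64925537 to 64925765 in Tlr1 and 64953828 to 64954056 in Tlr6). How reads that match both genes were counted is not given in the sources used here, so a part of the counts of each is uncertain. The end of that stretch is shown for both genes on the minus strand of GRCm38 (chr5:64925716-64925815 for Tlr1 and chr5:64954007-64954106 for Tlr6) because a read placed there can be assigned by a single base, which is in capitals.
Tlr1: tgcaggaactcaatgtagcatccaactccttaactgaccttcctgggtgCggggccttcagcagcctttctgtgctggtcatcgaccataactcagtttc
Tlr6: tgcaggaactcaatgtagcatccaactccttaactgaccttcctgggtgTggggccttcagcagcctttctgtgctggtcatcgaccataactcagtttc

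Tlr4 (chromosome 4, 66827584 to 66930284, plus strand), the receptor of the LPS that all DCs had received, lay just outside the threshold. It had 26.3 CPM in the lowest, 44.9 in the median, and 108 in the highest suspension library. In replicates 1, 2, and 3 it had 105, 104, and 73.8 CPM at 1.7 mg/ml of collagen, 113, 102, and 173 at 2.6, 89.8, 133, and 77.4 at 3.5, and 58.4, 23.2, and 129 at 4.4. Replicate 2 at 4.4 mg/ml was the lowest of all 18 libraries for Tlr4, and only 4 of 12 collagen libraries lay above all suspension libraries. The log2 difference was 0.84 with a standard error of 0.33 (adjusted p = 0.10 in edgeR). It was 0.86 with the replicate block (adjusted p = 0.0554), and without replicate 2 at 4.4 mg/ml it was 0.94 (adjusted p = 0.0395).

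Tlr5 (chromosome 1, 182954788 to 182976044, plus strand), the flagellin receptor, was the lowest surface receptor in both settings and fell in collagen. The suspension libraries titled without CCL19 held 47, 9, and 18 counts and those titled plus CCL19 held 32, 26, and 14, equal to 0.41 to 1.86 CPM. The collagen libraries held 3, 2, and 1 counts at 1.7 mg/ml of collagen, 0, 2, and 4 at 2.6, 0 in all 3 libraries at 3.5, and 0, 4, and 0 at 4.4. All 12 collagen libraries were thus below all 6 suspension libraries, an arrangement held by 1.52% of all genes tested. The mean was 1.22 ± 0.64 CPM in suspension and 0.0848 ± 0.11 CPM in collagen (SD, n = 6 and 12), the latter below the floor. The level at 3.5 mg/ml was at least 5.74-fold lower than in suspension, taking 3 counts per library as the floor. The edgeR test gave an adjusted p of 0.0020, which is no support beyond these counts because of how Tlr5 passed the filter. Its collagen counts sum to 16.

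Among the endosomal receptors, Tlr9 (chromosome 9, 106222598 to 106226883, plus strand), which binds DNA with unmethylated CpG motifs, fell in collagen. In replicates 1, 2, and 3 it had 34.5, 45.8, and 74.7 CPM in suspension titled without CCL19 and 19.2, 20.1, and 40.7 in suspension titled plus CCL19. It had 7.47, 17, and 14.6 CPM at 1.7 mg/ml of collagen, 7.20, 15, and 13.9 at 2.6, 3.77, 10.6, and 15.5 at 3.5, and 2.89, 0.94, and 5.20 at 4.4. All collagen libraries lay below all suspension libraries, as for 1.52% of all genes tested. The libraries at 4.4 mg/ml were the lowest of each replicate, and the share of all genes with this order was not counted. The log2 difference was −2.16 with a standard error of 0.33 (adjusted p = 0.0010 in edgeR), a level in suspension 4.47-fold that in collagen. Within replicates 1, 2, and 3 the difference in mean log2 CPM was −2.36, −2.05, and −2.27, and the call held in 11 of 11 alternative analyses.

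The 250 bases before the RefSeq start of Tlr9 are shown because it is the receptor with the most counts among those that fell, and its window has no exon of GENCODE. They lie at chr9:106222348-106222597, plus strand, GRCm38.p6. Capitals mark letters that match AP-1 (TGANTCA) or an ETS core (AGGAAG) on either strand.
Tlr9: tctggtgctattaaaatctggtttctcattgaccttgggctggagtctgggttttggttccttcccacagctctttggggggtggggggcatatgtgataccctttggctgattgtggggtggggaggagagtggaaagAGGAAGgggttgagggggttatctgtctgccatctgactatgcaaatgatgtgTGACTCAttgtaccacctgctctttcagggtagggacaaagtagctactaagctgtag
The window held an ETS match 111 bases and an AP-1 match 58 bases before the start, and the motifs did not overlap. Of the 8 receptors with a window in the RefSeq table, thus without Tlr4 and Tlr7, Tlr9 alone held an AP-1 match, and 5 held an ETS core (Tlr1, Tlr2, Tlr6, Tlr9, and Tlr13). Of all 32851 windows of that length, 6.75% held AP-1 and 29.5% the ETS core. A match of letters is a description and not a binding site.

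Tlr7 (chromosome X, 167304929 to 167330558, minus strand), a receptor of single-stranded RNA, rose in collagen. In suspension it had 3.71 CPM in the lowest, 11.6 in the median, and 24.7 in the highest library. In replicates 1, 2, and 3 it had 28.2, 31.0, and 16.7 CPM at 1.7 mg/ml of collagen, 30.2, 38.2, and 38.6 at 2.6, 31.8, 31.0, and 12.3 at 3.5, and 30.1, 12.8, and 24.4 at 4.4. Of the collagen libraries, 8 of 12 lay above all suspension libraries, and 11 of 12 above both suspension libraries of their replicate. The log2 difference was 1.15 with a standard error of 0.35 (2.21-fold, adjusted p = 0.0400 in edgeR). Without replicate 2 the adjusted p was 0.23. Replicate 3, with the lowest suspension levels, differed by 2.22 in mean log2 CPM, against 0.82 and 0.87 in replicates 1 and 2. Replicate 3 is the one without Xist counts, and the part of this in the levels of the X-linked Tlr7, Tlr8, and Tlr13 was not tested.

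Tlr8 (chromosome X, 167242696 to 167264329, minus strand), the neighbor of Tlr7, was not called. It ranged from 0.91 to 6.56 CPM in suspension (median 3.25) and from 0.74 to 5.74 CPM in collagen (median 2.42). The groups overlapped, and the log2 difference was −0.39 with a standard error of 0.42 (adjusted p = 0.59 in edgeR). Its differences in mean log2 CPM within replicates 1, 2, and 3 were −1.06, −0.42, and 0.35 and thus not of the same sign.

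Tlr13 (chromosome X, 106143204 to 106160493, plus strand), a receptor of bacterial ribosomal RNA, had 34.7 to 75.4 CPM in suspension titled without CCL19, 27.6 to 48.0 in suspension titled plus CCL19, and 22.9 to 43.6 in collagen. In collagen, 4 of 12 libraries lay below all suspension libraries and 10 of 12 below both suspension libraries of their replicate. The log2 difference was −0.48 with a standard error of 0.21 and was not called (adjusted p = 0.14 in edgeR). With the replicate block it was −0.44 and was called (adjusted p = 0.0446).

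Tlr3 (chromosome 8, 45395665 to 45411080, minus strand), the receptor of double-stranded RNA, was low throughout. It ranged from 0 to 3.21 CPM in suspension (median 0.61) and from 0 to 5.23 CPM in collagen (median 0.88), and its highest level came in replicate 1 at 4.4 mg/ml with 116 counts. The groups overlapped, and the log2 difference was −0.04 with a standard error of 0.81 (adjusted p = 0.98 in edgeR), an error that leaves room for a change of either sign. Tlr3 overlaps the antisense gene Gm45542, and 5.30% of its 50-base windows occur in other genes on either strand. The kit marks strand, but the strand setting of the counts is not given in the sources used here.

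**Figure D2:**
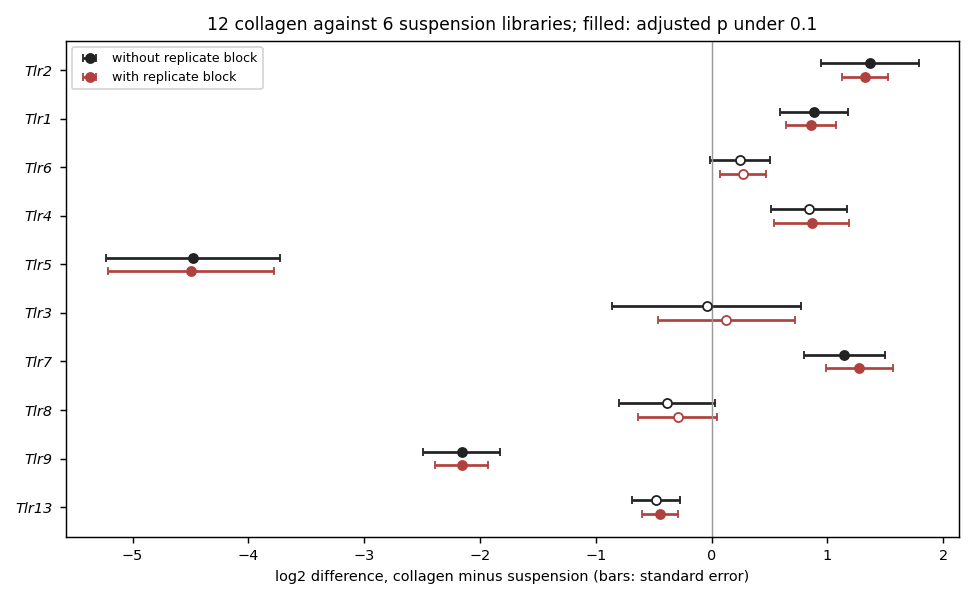
Log2 difference of each receptor (collagen minus suspension, bars are standard errors) from edgeR without the replicate block (black) and with it (red), with filled points at an adjusted p under 0.1. Tlr1, Tlr2, Tlr7, Tlr5, and Tlr9 are filled in both fits, Tlr4 and Tlr13 with the block only.

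The 2 remaining receptor genes of the mouse, Tlr11 and Tlr12, which bind profilin of parasites, were not among the 10. Tlr11 had a mean of 0.51 ± 0.44 CPM in suspension and 0.28 ± 0.28 in collagen, and Tlr12 had 4.23 ± 2.33 and 1.76 ± 1.62 (SD, n = 6 and 12). Of the collagen libraries, 7 of 12 lay below all suspension libraries for Tlr12 and 4 of 12 for Tlr11. Tlr12 fell in collagen, with a log2 difference of −1.49 and a standard error of 0.48 (adjusted p = 0.0486 in edgeR), and 11 of 12 collagen libraries lay below both suspension libraries of their replicate. It was also lower at 4.4 mg/ml (−2.73, adjusted p = 0.0462) and was not called at the lower densities. The replicate block left Tlr12 called lower in collagen (−1.51, adjusted p = 0.0020), and with it Tlr12 was lower at 2.6 mg/ml and above, and at 4.4 against 1.7 mg/ml (−2.19, adjusted p = 0.0911).

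Per kb of exon, Tlr2 was the most abundant receptor in both settings, at 28.6 ± 12.9 CPM per kb in suspension and 75.1 ± 42.9 in collagen (SD, n = 6 and 12). Its share of the summed level of the 10 receptors was 42.2% in suspension and 65.4% in collagen. In suspension Tlr9 came next with 11.3 CPM per kb, then Tlr13 with 10.7 and Tlr4 with 10.0. These 3 did not differ beyond their spread, since neighbors kept this order in 3 and 4 of 6 libraries. Tlr7 (3.04), Tlr6 (1.53), Tlr1 (1.16), Tlr8 (1.02), Tlr5 (0.26), and Tlr3 (0.20) followed. Of these steps, only those from Tlr4 to Tlr7 and from Tlr8 to Tlr5 held in 6 of 6 libraries.

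In collagen the order was Tlr2, Tlr4 (17.7 CPM per kb), Tlr13 (7.64), Tlr7 (6.64), Tlr9 (2.73), Tlr1 (2.12), Tlr6 (1.83), Tlr8 (0.75), Tlr3 (0.22), and Tlr5 (0.018). Tlr9 thus ranked 2 of 10 in suspension and 5 of 10 in collagen, with 16.6% and 2.38% of the summed level. The steps from Tlr2 to Tlr4 and from Tlr6 to Tlr8 held in 12 of 12 collagen libraries. Tlr9 and Tlr1 did not differ beyond their spread, with this order in 6 of 12 libraries, nor did Tlr1 and Tlr6 (8 of 12) and Tlr13 and Tlr7 (9 of 12).

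**Figure D3:**
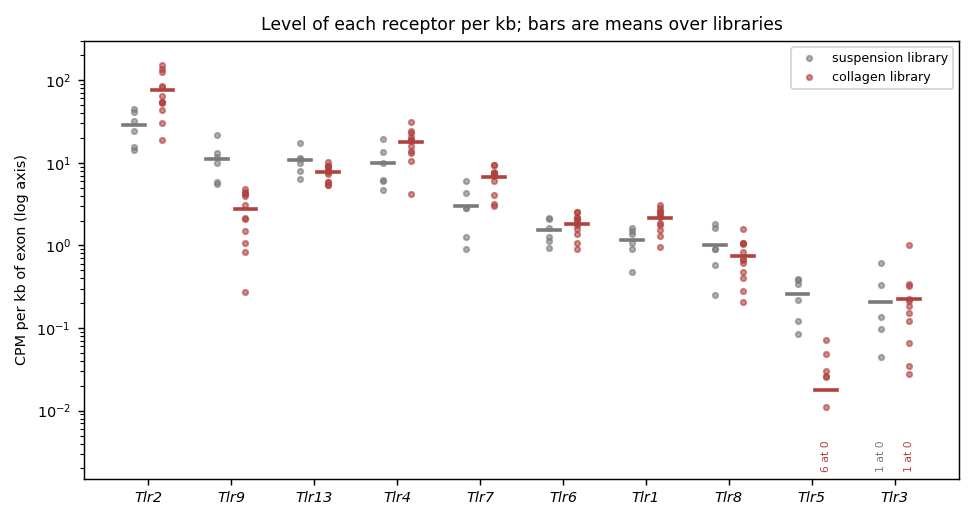
Level of each receptor in CPM per kb of exon on a log axis, with a point for each suspension (grey) or collagen (red) library and bars at the means; libraries at 0 are given as a count below the points. Tlr2 leads in both settings, and the Tlr9 mean goes from 11.3 in suspension to 2.73 in collagen.

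Across the collagen densities, each density was first set against the same 6 suspension libraries, so the 4 comparisons share their controls. At 1.7 mg/ml edgeR and DESeq2 called 0 receptors, and 4 had an unadjusted p under 0.05 in edgeR (Tlr2, Tlr5, Tlr7, and Tlr9). There edgeR called 0.0361% of all genes and DESeq2 141 of 13827, and DESeq2 gave Tlr5 no adjusted p. At 2.6 mg/ml, 4 receptors were called, Tlr2, Tlr5, Tlr7, and Tlr9, against 7.87% of all genes. Tlr5 and Tlr9 were called at both 3.5 and 4.4 mg/ml, against 4.9% and 14.8% of all genes. With the replicate block, 2 receptors were called at 1.7 mg/ml of collagen (2.91% of all genes), 6 at 2.6 (21.6%), 5 at 3.5 (18.4%), and 6 at 4.4 (31.9%).

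The receptors that were higher in collagen had their largest log2 difference at 2.6 mg/ml. Tlr2 differed from suspension by 1.43 ± 0.54 (SE), 1.77 ± 0.54, 1.22 ± 0.54, and 1.05 ± 0.54 from the lowest to the highest density. Tlr7 differed by 1.07 ± 0.46, 1.57 ± 0.45, 1.05 ± 0.46, and 0.90 ± 0.46, and Tlr1 by 0.70 ± 0.39, 1.06 ± 0.39, 0.93 ± 0.39, and 0.83 ± 0.39. None of the 3 had a slope over the densities that was called, with or without the replicate block. Among the densities, 2.6 mg/ml had the highest level of Tlr2 in 3 of 3 replicates and of Tlr1 and Tlr7 in 2 of 3 each, with 3.5 mg/ml highest in the other.

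Tlr9 differed from suspension by −1.51 ± 0.53 (SE), −1.62 ± 0.53, −1.90 ± 0.54, and −3.60 ± 0.60 from the lowest to the highest density. Its slope over the 4 densities was −0.73 ± 0.21 log2 units per mg/ml (adjusted p = 0.42 in edgeR), and 4.4 mg/ml differed from 1.7 mg/ml by −2.09 ± 0.60 (adjusted p = 0.38). Neither was called, and of the 10 receptors Tlr9 alone had an unadjusted p under 0.05 for either in edgeR. Here 0.00722% of all genes had a slope that was called and 0.00722% a called difference between 4.4 and 1.7 mg/ml. With the replicate block Tlr9 alone of the 10 receptors was called, with a slope of −0.74 ± 0.15 (adjusted p = 0.0438, against 1.45% of all genes) and a difference of −2.09 ± 0.42 (adjusted p = 0.0335, against 1.73% of all genes). Within replicates 1, 2, and 3, the log2 CPM at 4.4 mg/ml was −1.34, −4.03, and −1.47 relative to 1.7 mg/ml. Without replicate 2 at 4.4 mg/ml the slope was −0.59 (adjusted p = 0.67), and −0.58 with the block (adjusted p = 0.0808).

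**Figure D4:**
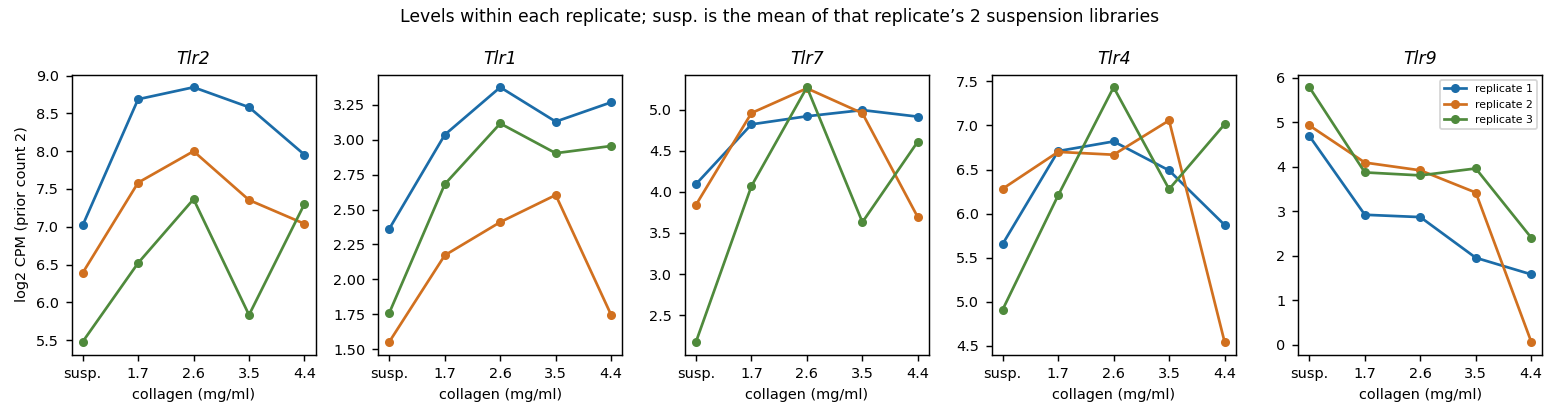
Log2 CPM of 5 receptors in each replicate (colors), with the mean of the 2 suspension libraries of the replicate at the left and the 4 collagen densities (mg/ml) to the right. Tlr2 is above its suspension level at each density in each replicate, and Tlr9 is lowest at 4.4 mg/ml in all 3 replicates.

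The test of any difference among the 6 groups called Tlr9 (adjusted p = 0.0157 in edgeR), against 4.9% of all genes. It also called Tlr5, which had to differ since it passed the filter through its suspension libraries alone. With the replicate block the test called 5 receptors, Tlr5 among them, against 24.3% of all genes. Between the suspension groups edgeR and DESeq2, both without the block, called 0 of 10 receptors and 0% of all genes. In these fits 0 of 10 had an unadjusted p under 0.05. The largest differences there (titled plus CCL19 minus titled without) were −0.97 ± 0.69 for Tlr8 and −0.95 ± 0.57 for Tlr9 (SE). For Tlr9 the library titled plus CCL19 lay below the one titled without in each of the 3 replicates. The same order held for Tlr6, Tlr8, and Tlr13, and the share of all genes with it was not counted. For Tlr9 the fit without the block, which ignores the pairing by replicate, gave adjusted p = 0.76 in edgeR. With the block Tlr9 differed by −0.95 ± 0.39 (SE, unadjusted p = 0.024, adjusted p = 0.33 in edgeR). Again 0 receptors and 0 of all genes were called, and Tlr9 was the 1 receptor with an unadjusted p under 0.05.

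Genes that work with the receptors moved in both directions, in a comparison in which 20.2% of all genes were called without the block and 34.8% with it. Of 6 co-receptors and ligand carriers none was called, including Cd14, which passes LPS to Tlr4 (log2 difference 0.59 ± 0.57, SE), and Ly96, the LPS-binding partner of Tlr4 (0.58 ± 0.34). With the replicate block both were called higher, with adjusted p = 0.0203 for Cd14 and 0.0404 for Ly96. Of 9 genes for folding, trafficking, and cleavage of the receptors none was called, including Unc93b1, which brings endosomal receptors to their compartment (0.27 ± 0.49). With the block 5 of these 9 were called higher, among them Ctsk (adjusted p = 0.0036) and Ctsl (adjusted p = 0.0033), proteases of the endolysosome.

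Of the adaptors, 5 of 6 could be tested. Myd88, the adaptor of all the receptors but Tlr3, rose from 85.0 ± 14.4 CPM in suspension to 134 ± 21.2 in collagen (SD), a log2 difference of 0.65 ± 0.16 (SE, adjusted p = 0.0124 in edgeR). Ticam2, which links Tlr4 to its endosomal signal, fell from 18.5 ± 4.14 to 8.39 ± 3.80 CPM, a difference of −1.19 ± 0.22 (adjusted p = 0.0027). Of 16 kinases and ubiquitin ligases, 2 rose (Traf6 and Tab2) and 4 fell (Irak1, Irak4, Tab1, and Ikbkg). Ikbkg, the regulatory subunit of the IκB kinase, fell by 0.86 ± 0.17 (adjusted p = 0.0033), Tab1 by 0.78 ± 0.28 (adjusted p = 0.071), and Irak4, the kinase that Myd88 recruits, by 0.71 ± 0.17 (adjusted p = 0.011). Of 9 inhibitors only Sigirr was called, with a difference of −0.78 ± 0.25 (adjusted p = 0.0529). With the block, 1 adaptor was higher and 3 were lower, 5 kinases and ligases were higher and 5 lower, and 1 inhibitor was higher and 1 lower. Of all genes, 20.2% were called without the block (7.78% higher and 12.4% lower). With it 34.8% were called (15.6% higher and 19.3% lower).

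Of 10 genes that Toll-like receptor signals induce, 4 rose and none fell, where 7.78% of all genes were called higher and 12.4% lower. The largest difference was that of Ptgs2, a prostaglandin synthase (2.78 ± 0.90, SE, adjusted p = 0.0503 in edgeR), followed by Il1b (1.92 ± 0.49, adjusted p = 0.0163) and Il6 (1.61 ± 0.41, adjusted p = 0.0154). Nfkbiz was the fourth. Ifnb1, the interferon gene downstream of Ticam1, had 0.25 ± 0.38 CPM in suspension and 0.27 ± 0.32 in collagen (SD) and was not called. The median log2 difference was 0.27 for the co-receptors, 0.47 for folding and trafficking, −0.39 for the adaptors, 0.18 for kinases and ligases, −0.012 for the inhibitors, and 0.58 for the induced genes.

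**Figure D5:**
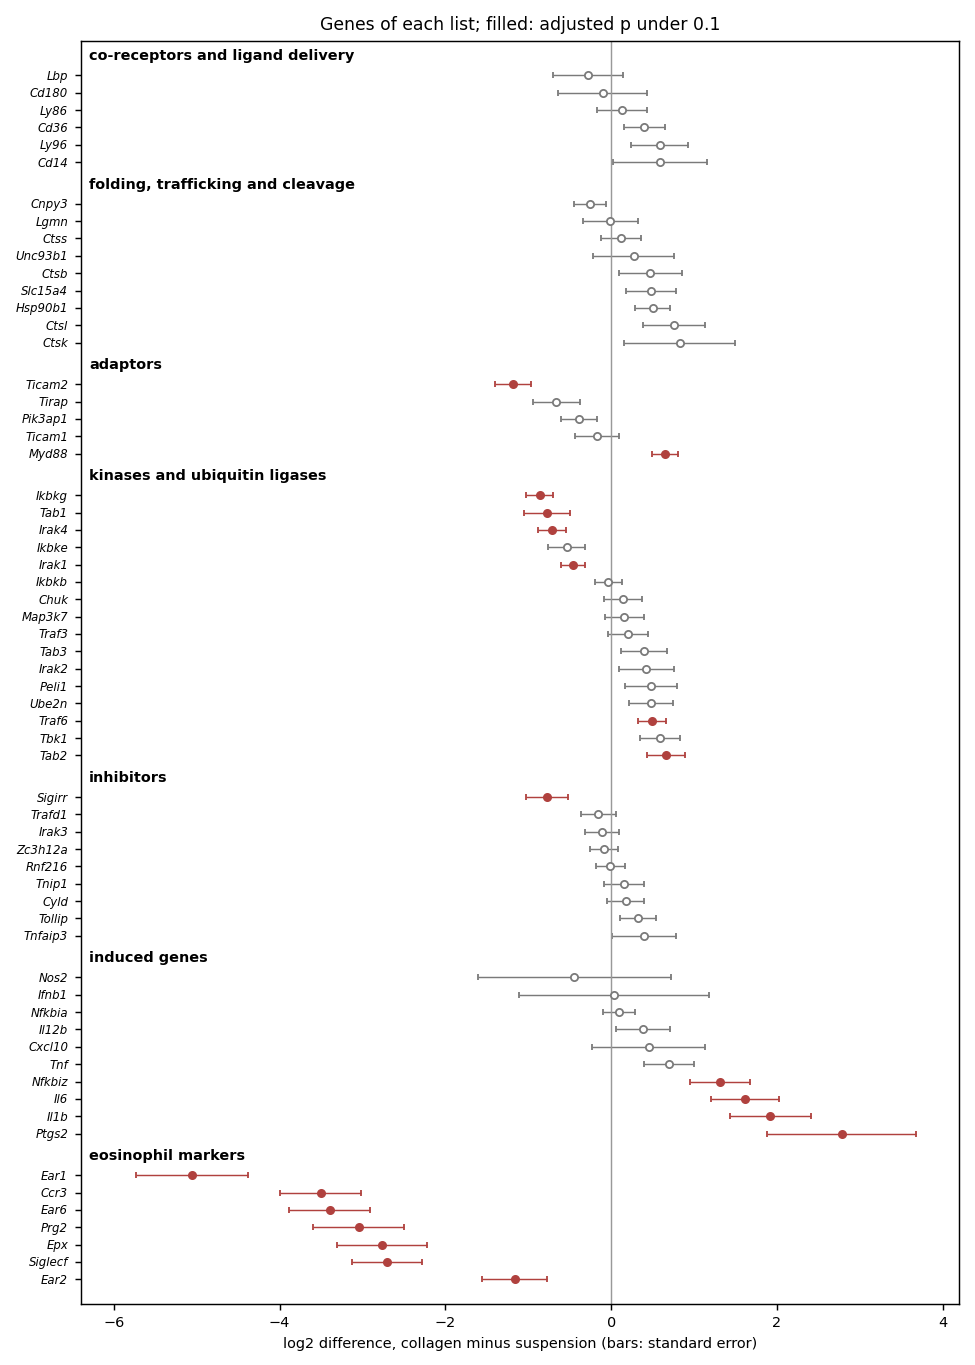
Log2 difference of each tested gene (collagen minus suspension, bars are standard errors) by list, with filled red points at an adjusted p under 0.1. The called adaptors, kinases, and ligases lie on both sides of 0, the 4 called induced genes lie to the right, and the 7 tested eosinophil markers lie to the left.

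Markers of other cells that GM-CSF cultures of bone marrow can hold were read in the same comparison. There 20.2% of all genes were called without the block and 34.8% with it. All 7 tested of 8 eosinophil markers fell in collagen, and the summed CPM of the list was 117 to 1339 in suspension (median 342) and 14 to 168 in collagen (median 43.0), so that the ranges overlapped. Their direction in collagen against suspension is that of Tlr5 and Tlr9. In suspension titled without and plus CCL19, the median of the list was 185 and 936 CPM. There Tlr5 had medians of 1.04 and 1.64 CPM and Tlr9 of 45.8 and 20.1. At 3.5 and 4.4 mg/ml the list had medians of 35.9 and 39.7 CPM, where Tlr9 had 10.6 and 2.89. The part of these markers in the results was not tested. Of 8 macrophage markers none was called without the block and 6 were higher with it, and their summed CPM was 289 to 1164 in suspension and 302 to 1791 in collagen. That is the direction of Tlr1, Tlr2, Tlr4, and Tlr7. The median of the macrophage sum was highest at 4.4 mg/ml (1094 CPM), where the differences of Tlr2, Tlr4, and Tlr7 from suspension were smallest. That of Tlr1 was smallest at 1.7 mg/ml. By replicate, the macrophage sum was 866 to 1791 CPM in the libraries of replicate 1 (median 1725). Replicate 1 also had the highest Tlr2 and Tlr1 in each group, which did not hold for Tlr4 and Tlr7. The part of the macrophage markers was not tested. Of 8 neutrophil markers 2 fell (Ly6g and Retnlg) and 6 were not called. Of 7 mast cell and basophil markers Hdc rose, Kit fell, and 5 were not called. Of 9 DC markers Flt3 fell and 8 were not called, with a median log2 difference of 0.14. With the block Itgax, a DC marker, was also called higher, and Ms4a2, a mast cell and basophil marker, lower.

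Lymphoid markers were near the floor. The summed CPM of 6 T and NK cell markers was at most 0.64 in suspension and 0.94 in collagen, and that of 5 B cell markers at most 23.6 and 14.5. Of 5 markers of plasmacytoid DCs, which are known for Tlr7 and Tlr9, 3 could be tested, and none was called without the block. With the block, which called 34.8% of all genes, Bst2 and Tcf4 were higher in collagen. Bst2, which interferon also induces in other cells, had 681 ± 295 CPM in suspension and 1306 ± 833 in collagen, and Tcf4 had 22.4 ± 9.23 and 31.2 ± 10.3 (SD, n = 6 and 12). The summed CPM of the list was 392 to 1163 in suspension and 433 to 2859 in collagen, and its part in the Tlr7 and Tlr9 results was not tested. Siglech, a defining gene of these cells, had at most 0.23 CPM in suspension and 0 counts in all 12 collagen libraries.

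For each receptor, the genes with the most similar course over the 18 libraries were found by the root mean square (RMS) difference of log2 CPM, each centered on its mean. For Tlr2 these were Ptger2 (RMS 0.26) and Stom (0.31), for Tlr1 Pcgf5 and Mettl6 (both 0.27), for Tlr4 Ptpre (0.34) and Gk (0.42), and for Tlr7 Vcan (0.37) and Slc7a11 (0.38). For Tlr9 they were Extl1 (0.60) and Map10 (0.63) and for Tlr5 Fbxo10 (0.78) and Pde4a (0.82). The RMS grows with the spread of the receptor itself, which had an SD of 1.48 log2 units for Tlr9 and 0.66 for Tlr1, so it does not rank receptors. The remaining receptors were nearest to Akap7 and Snx7 (Tlr6), Agfg2 and Alg2 (Tlr13), Ercc6 and Adcy7 (Tlr8), and C1ra and Tnfsf13b (Tlr3), at an RMS between 0.23 and 0.80. No receptor was among the 2 genes nearest to another. The nearest pair among the 10 was Tlr6 and Tlr13 (0.49), with 6.83% of genes closer to Tlr6 and 9.39% closer to Tlr13 than their family member. For Tlr4 and Tlr7 (0.56) these shares were 0.759% and 0.556%. The libraries of a replicate share a batch, so these distances also hold the replicate.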

How the data were processed

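RNA of 18 libraries was read as single reads of 50 bases from stranded mRNA libraries. Per the labels, the authors aligned reads with STAR 2.7.0f to GRCm38 and deposited raw counts for each Ensembl gene as whole numbers. The counting tool, its strand setting, and how it treated reads with several matching genes are not given in the sources used here. Symbols, coordinates, and lengths came from GENCODE M21 (29866 of 29875 identifiers matched) and promoter windows from RefSeq. The receptors and gene lists were chosen with earlier results of these data known.

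Counts were filtered (filterByExpr), scaled (TMM), and tested with edgeR 4.0.16 in R 4.3.3 in a single fit of 6 groups over 18 libraries. P-values were adjusted over 13844 genes and called at an FDR of 0.1. Standard errors came from log2 differences and their F statistics. Log2 CPM used a prior count of 2. Folds against 0 used 3 counts as the floor. Alternatives were a replicate block, the block with GC and length offsets (loess, span 0.5), DESeq2 1.42.0, its size factors, no filter, an FDR of 0.05, and omission of each replicate or of replicate 2 at 4.4 mg/ml. Omission of that library together with the block was chosen after seeing the data.

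Replicate numbers pair the libraries because each number stands for its own date and lane in the library names. Deviations from group means correlated at a mean r of 0.43 for libraries with the same number (lowest −0.15) and −0.21 for different numbers. The latter value largely follows from the former, since the deviations in each group of 3 sum to 0, and adds no support. Nothing in the labels says that the replicates came from different mice, so p-values measure the spread between these libraries. With the block the biological coefficient of variation fell from 49.0% to 33.1%. Genes named were the 10 receptors, Tlr11 and Tlr12, up to 3 called genes per list by size plus Cd14, Ly96, Unc93b1, and Myd88, and the 2 nearest genes of each receptor. Further called list members were named after their values were seen. On simulated counts for 13844 genes with 200 changed, the fit recovered 168 for collagen against suspension, with 19 false calls, and 101 for the density trend, with 5 false calls. These counts hold for the simulated effects and spread only. They do not give the power or the error rate of the fit in the libraries themselves.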

Additional observations from a re-analysis of the deposited data

How the results depend on the processing

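Tlr9 was called lower in collagen under 11 of 11 alternatives, and so was Tlr5, which had to differ since it passed the filter through its suspension libraries alone. Tlr2 and Tlr7 were called higher under 10, Tlr4 higher under 8, and Tlr1 under 6. The number of receptors called moved more, and so did the number of all genes called. In the main analysis the latter was 2790 of 13844 for collagen against suspension. Leaving out replicates or replicate 2 at 4.4 mg/ml gave 3 to 6 called for collagen against suspension (5 in the main analysis), 0 at 1.7 mg/ml (0), 0 to 5 at 2.6 mg/ml (4), 0 to 2 at 3.5 mg/ml (2), 0 to 3 at 4.4 mg/ml (2), 0 to 2 for any difference (2), and 0 for the slope and for 4.4 against 1.7 mg/ml (0). Of the 13662 to 14368 genes then tested, these fits called 631 to 2958 for collagen against suspension. At the densities they called 0 to 6, 0 to 1318, 0 to 781, and 106 to 1615 genes. They called 0 to 612 genes for any difference and 0 for the slope and the ends. Where 0 of all genes were called, 0 receptors says nothing about the receptors in particular. Leaving out replicate 2 at 4.4 mg/ml with the replicate block added, 2 changes at once, gave 7, then 4, 6, 6, and 6 at the densities, 6 for any difference, and 1 each for the slope and the ends. Of 14368 genes tested, it called 5401, then 760, 3663, 3165, and 3600 at the densities. It called 3546 for any difference, 45 for the slope, and 43 for the ends. With the replicate block 2, 5, and 6 receptors were called at 1.7, 3.5, and 4.4 mg/ml (2.91%, 18.4%, and 31.9% of all genes). It called 1 for the slope (1.45%), 1 for 4.4 against 1.7 mg/ml (1.73%), and 5 for any difference (24.3%). With GC and length offsets added, 3, 7, 6, and 6 were called at the 4 densities and 1, 1, and 5 for the rest. Of all 13844 genes, the offsets gave 620, 3374, 2564, and 4818 at the densities and 702, 928, and 3697 for the rest. Without a filter 2 were called at 1.7 mg/ml, 5 for any difference, and 1 each for the slope and the ends. Of 29875 genes then tested, 79, 1993, 139, and 151 were called in these. DESeq2 called 1 at 3.5 mg/ml and 1 each for the slope and the ends, against 1343, 122, and 147 of 13827 genes. It gave Tlr5 no adjusted p at 3.5 mg/ml. An FDR of 0.05 left 0 at 2.6 mg/ml and 1 at 3.5 and 4.4 mg/ml and for any difference. Of all 13844 genes it left 444, 220, 1229, and 338. The causes of these changes were not tested, with 2 exceptions. A stricter threshold leaves fewer calls by construction, and a receptor without an adjusted p, as Tlr5 in DESeq2 at 3.5 mg/ml, cannot be called.

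The Tlr3 difference, not called under any alternative, changed sign to 0.13 with the block, 0.014 in DESeq2, 0.0094 with its size factors, 0.10 with the block and offsets, and lay between −0.39 and 0.47 where libraries were left out. Tlr4 at 4.4 mg/ml ranged from −0.64 (without replicate 3) to 1.18 (without replicate 2), and was 0.39 in the main analysis. Of the other values for single receptors, 358 were unchanged, 70 passed the threshold only in the alternative, and 34 no longer passed it. Unchanged differences kept their direction and side of the threshold. The 358 also include levels per kb that moved by less than their SD with the longest transcript as length. With the longest transcript as length, Tlr4 ranked 2 and Tlr9 ranked 4 in suspension, with the order in collagen as before. No test for receptors below the filter was run, since all 10 passed it. Tlr5, Tlr3, and Tlr11 rest on few counts.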
